A study of Mus musculus with 24 samples.

Results

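WY-14,643 (WY), a synthetic agonist of the nuclear receptor PPARα, was fed to PPARα-null and wild-type mice, and the question taken up here is which of its effects on liver mRNA differ between the strains and whether any remain where the receptor gene is disrupted. The measure is the WY by genotype interaction on the log2 scale, the WY change in wild-type livers minus the WY change in PPARα-null livers, taken over the 12 mice of 24 that were not heat shocked and over 12422 of the 12488 probe sets of the Affymetrix U74Av2 array. The 66 left out are AFFX control probe sets, which hold no value. A positive interaction means that WY moved the gene further up, or less far down, in wild-type than in null livers. The 4 groups were PPARα-null mice on the WY diet, PPARα-null mice on control diet, wild-type mice on the WY diet and wild-type mice on control diet, with 3 mice in each and 1 array per mouse. All were males aged 9 to 12 weeks on a mixed SV129/C57BL/6 background, kept on NIH-07 chow, and whole liver was taken. The WY diet held 500 ppm for 1 week, and these 12 mice were held at room temperature while the other 12 had a 40-minute heat shock (HS). The study took the livers for its arrays 4 hours after HS. The null strain lacks the receptor in every tissue, so a gene that differs with genotype need not be one that the receptor acts on in hepatocytes.

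PPARα forms a heterodimer with RXR on DNA elements made of direct repeats of a hexamer, and fatty acids and their derivatives are its natural ligands. In rodent liver its agonists are known to raise the enzymes that take up, activate and oxidise fatty acids in peroxisomes, mitochondria and the endoplasmic reticulum, and to lower a number of secreted plasma proteins. WY is also a weak agonist of other PPARs, so a response in null liver is a question in its own right.

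*Ppara* itself read 103, 168 and 155 normalized intensity units in the null WY livers and 185, 174 and 152 in the null controls, against 328, 274 and 290 in the wild-type WY livers and 315, 298 and 357 in the wild-type controls. The null values lay below all wild-type values and well above the floor of the scale. The genotype difference between controls did not pass the test (log2 -0.92, limma adjusted p = 0.0594), nor did the interaction (log2 0.17, SE 0.31). The sources used here do not say which exons were disrupted or where this probe set lies relative to them.

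The deposited intensities had background subtracted and were not at a common level, with array medians of 18.7 to 40.5 over the 12 mice. They were quantile normalized over all 24 arrays, floored at 15.7 and taken to log2. On all of the 12 arrays 3497 probe sets lay at the floor, and no change could be measured for them. A gene is stood for by its brightest probe set, and "called" means an adjusted p under 0.05 over all probe sets. Where a group lies wholly at the floor its fold is a lower bound, and since such a group does not vary, its p can be too small. Hepatocyte markers summed to 40930 to 43870 on all 12 arrays. Single members did move: 3 of the 10 had a called interaction (30%), all negative, where 6.27% of all genes had one of either sign. Among markers of other cells, Kupffer cell and macrophage genes summed to 1151 to 2324 in null WY livers and 895.7 to 1707 in null controls, against 847.5 to 1101 in wild-type WY livers and 1103 to 1268 in wild-type controls, with none of the 14 called for the interaction. Endothelial genes summed to 862.4 to 1114 in null WY livers and 899.2 to 1121 in null controls, against 685.5 to 777 in wild-type WY livers and 1058 to 1220 in wild-type controls, with none of 11 called for the interaction and *Eng* and *Kdr* lower with WY in wild-type livers. Stellate cell and fibroblast genes summed to 1688 to 2269 in null WY livers and 1658 to 2008 in null controls, against 1458 to 1684 in wild-type WY livers and 1769 to 2092 in wild-type controls, with none of 11 called. Cholangiocyte genes summed to 817.6 to 1145 in null WY livers and 977.9 to 1032 in null controls, against 1250 to 1431 in wild-type WY livers and 727.2 to 794.6 in wild-type controls. Their defining genes *Epcam*, *Krt7* and *Krt19* lay at the floor in all 12 mice, and the 1 of 6 called was the keratin gene *Krt8* (interaction 0.96), which hepatocytes also express. For these 4 lists the wild-type groups did not overlap and the null groups did, and their part in the interactions below was not tested. Muscle genes summed to 295.2 to 312.3 in wild-type WY livers and 312.9 to 1373 in wild-type controls, and none of the 12 was called for the interaction.

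The interaction was called for 637 probe sets, 5.13% of those tested. It was positive for 365 (2.94%) and negative for 272 (2.19%), with median values of 1.09 and -1.09. Without scaling of the arrays the calls were 265, 225 positive and 40 negative, and the median over all genes moved to 0.06, so the split of signs depends on the scaling. At an unadjusted p under 0.05 it reached 1816. The size was 2-fold or more for 363 and 4-fold or more for 116, of which 74 were positive and 42 negative. In 77 of the 637 at least 1 group lay wholly at the floor. Counted by gene, 295 of 8251 had a positive and 222 a negative interaction. Further probe sets of the called genes had the sign of the brightest one in 72 of 88 cases (81.8%). Only those with a mean log2 value more than 1 above the floor were counted.

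The sides of the interaction were unequal. For null livers the WY contrast was called for 1 probe set (0.00805%) by limma, against 429 at an unadjusted p under 0.05 (3.45%). The methods' test (an analysis of variance followed by Scheffe's test) called 14. It was run on the values normalized here, and the study's own processing was not repeated. For wild-type livers limma called the WY contrast for 1339 probe sets (10.8%), with 694 rises (5.59%) and 645 falls (5.19%). These became 1090 and 121 without scaling and 504 and 674 with the arrays brought to a common median. Of the 637 with a called interaction, 608 were also called for WY in wild-type livers, every one with the sign of the interaction, 350 upward and 258 downward. A further 28 were called on neither side, and in 20 of these the null change was the larger. Across all probe sets the WY changes of the 2 strains, which share no mice, had a Pearson correlation of 0.0045, given as a description since probe sets are not independent.

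**Figure D1:**
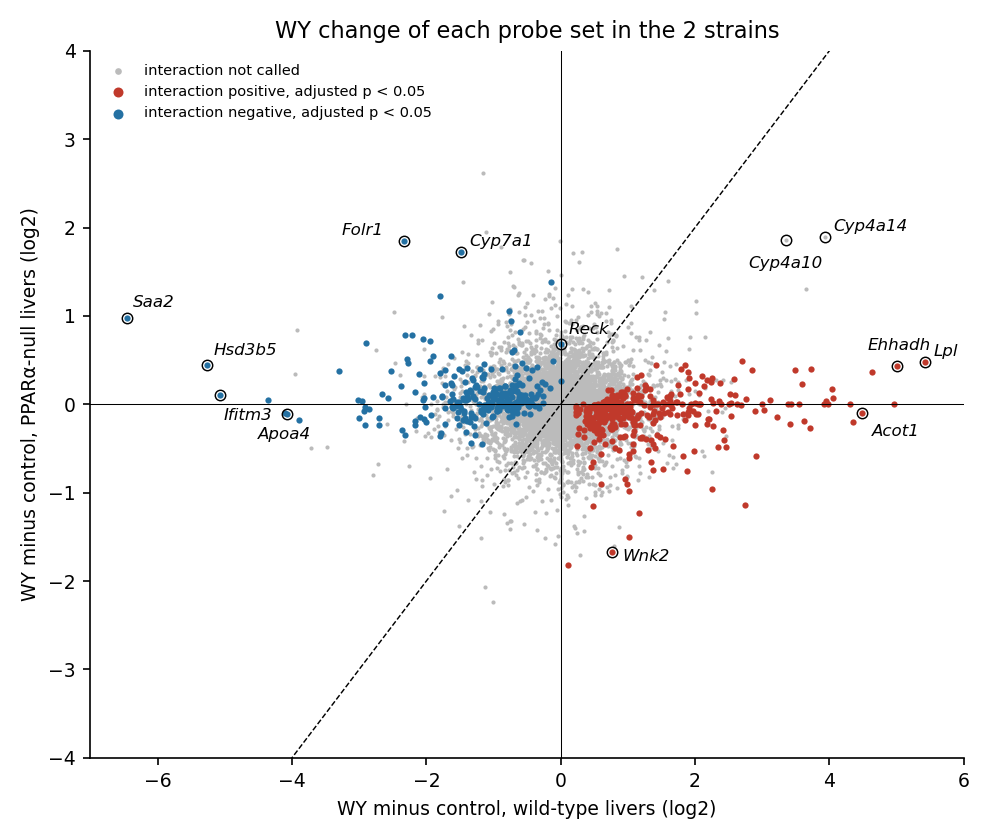
WY change of each of 12422 probe sets in PPARα-null livers (vertical axis, log2 WY minus control) against the change in wild-type livers (horizontal axis, same unit). Points are means of 3 mice per group, red and blue mark the 365 positive and 272 negative called interactions, circled genes are named in the text, and the dashed line marks equal change. The coloured points spread along the horizontal axis, while *Cyp4a14* and *Cyp4a10* lie apart at null changes of 1.89 and 1.85.

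How much of a wild-type change could remain in null livers is bounded by the error of the null change. Over the 1339 probe sets called in wild-type livers the null 95% interval had a median half-width of 0.36 on the log2 scale, where the median wild-type change was 0.86 in size. The interval lay wholly below 0.5 of the wild-type change in 841 of them (62.8%). The interaction itself was called for 608 (45.4%). The null change reached at least 0.5 of the wild-type change in 23, and it had the same sign in 624 (46.6%). The median null change was -0.01 over the probe sets that rose in wild-type livers, whose wild-type median was 0.86, and -0.01 over those that fell, whose wild-type median was -0.87. Among the 551 with a wild-type change of 2-fold or more, 403 (73.1%) had the null interval below 0.5 of it and 325 (59%) a called interaction. The wild-type change chose these probe sets, so these are descriptions and carry no test. For the remaining probe sets the null interval reached 0.5 of the wild-type change or lay beyond it, so a null change of that size is not excluded. For *Atf6*, described below, it lay wholly beyond (null 95% interval -1.28 to -0.55, wild-type change -0.86).

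Many of the largest positive interactions were in genes of fatty acid handling. Over 4 lists (uptake and lipid droplets, peroxisomal β-oxidation, mitochondrial β-oxidation, acyl-CoA activation and hydrolysis) 72 genes were on the array, 38 with a positive and 2 with a negative call (32 and 0 at a common median, 28 and 0 without scaling). The 38 changed by log2 -0.49 to 0.48 with WY in null livers and by 0.67 to 5.43 in wild-type livers. In 15 of the 38 the null and wild-type controls already differed (0.845% of all probe sets did), with 14 lower in null controls, so for these the strains began from different levels.

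*Ehhadh*, the bifunctional enzyme of peroxisomal β-oxidation, read 163, 96.2 and 100 in null WY livers and 94.7, 93.3 and 73.1 in null controls, against 2653, 2381 and 2410 in wild-type WY livers and 74.9, 75.3 and 81.9 in wild-type controls. The wild-type WY values stood far above the rest, and every null WY value was above every null control. The interaction was 4.57 (SE 0.26, limma adjusted p = 1.24e-08). In null livers the change was 0.43 (SE 0.18), which reached an unadjusted p of 0.0318 and did not pass the adjustment. *Acot1*, a cytosolic thioesterase that splits long-chain acyl-CoA, read 186, 174 and 177 in null WY livers and 191, 254 and 145 in null controls, against 3057, 2779 and 2989 in wild-type WY livers and 138, 108 and 154 in wild-type controls. Here the null groups overlapped, and the null change was -0.10 (95% interval -0.46 to 0.26) beside 4.48 in wild-type livers (interaction 4.58, SE 0.24, limma adjusted p = 5.55e-09).

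Of 21 genes of fatty acid uptake, binding and lipid droplets, 12 had a positive and 0 a negative interaction, with a median over all 21 of 1.09, beside 0 over all genes. *Fabp3*, a fatty acid binding protein best known from heart and muscle, lay at the floor of 15.7 in all null mice and all wild-type controls and read 272, 164 and 305 in the wild-type WY livers, at least 15.2-fold higher. *Cd36*, a fatty acid translocase, read 19.8, 15.7 and 15.7 in null WY livers and 15.7 in every null control, against 83.4, 101 and 102 in wild-type WY livers and 15.7 in every wild-type control. Outside the wild-type WY livers 1 value of this pair of genes was above the floor. *Fabp4*, the adipocyte fatty acid binding protein, averaged 26.3 ± 6.15 in null WY livers and 25.1 ± 5.70 in null controls, against 380 ± 87.4 in wild-type WY livers and 23.0 ± 5.54 in wild-type controls (SD, n = 3 mice each, as for all values given this way, interaction 3.98). *Fabp4* and the lipid droplet protein gene *Cidec*, which lay at the floor outside the wild-type WY livers and read 74.6, 51.4 and 75.0 there, are also on a list of 6 adipocyte markers. The sum of that list was 666.9 to 756.2 in wild-type WY livers and 258 to 380 in the other groups. That sum includes both genes, so it is not a separate measure of adipocyte content, and no other marker on the list was called. The part of adipocyte content in these values was not tested, and in whole liver more cells of a type and more RNA per cell cannot be told apart.

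*Lpl*, lipoprotein lipase, which splits the triglycerides of circulating lipoproteins, read 42.6, 15.7 and 15.7 in null WY livers and 15.7 in every null control, against 895, 909 and 926 in wild-type WY livers and 38.1, 15.7 and 15.7 in wild-type controls (interaction 4.95, SE 0.77, limma adjusted p = 0.000655). It had the largest WY change among the 38 genes. *Vnn1*, a pantetheinase, averaged 22.5 ± 11.8 in null WY livers and 18.7 ± 3.58 in null controls, against 1994 ± 251 in wild-type WY livers and 122 ± 23.4 in wild-type controls. It is among the genes that were already lower in null than in wild-type controls (log2 -2.71, limma adjusted p = 0.000806).

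In peroxisomal β-oxidation 10 of 19 genes were called positive and 1 negative (median interaction 1.05). *Crat*, the carnitine acyltransferase of peroxisomes and mitochondria, was at the floor in every null mouse and averaged 656 ± 10.9 in wild-type WY livers, against 23.1 ± 12.8 in wild-type controls. *Abcd3*, the transporter that brings acyl-CoA into the peroxisome, averaged 514 ± 18.1 in null WY livers and 475 ± 31.5 in null controls, against 2270 ± 19.4 in wild-type WY livers and 664 ± 55.5 in wild-type controls (interaction 1.66, limma adjusted p = 2.09e-07). *Pex11a*, which takes part in peroxisome division, had an interaction of 2.95. The gene with the negative call was *Pxmp2*, a channel protein of the peroxisomal membrane, at -0.58: it averaged 873 ± 29.6 in null WY livers and 844 ± 128 in null controls, against 627 ± 79.6 in wild-type WY livers and 896 ± 52.5 in wild-type controls.

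Mitochondrial β-oxidation and the carnitine shuttle had 11 positive calls of 19 genes and 0 negative, with a median of 1.01. *Hadhb*, a subunit of the trifunctional protein, changed by log2 0.03 (95% interval -0.14 to 0.21) with WY in null livers and rose 3.09-fold in wild-type livers. *Acadm*, medium-chain acyl-CoA dehydrogenase, averaged 1457 ± 80.3 in null WY livers and 1363 ± 118 in null controls, against 3468 ± 47.4 in wild-type WY livers and 1376 ± 91.2 in wild-type controls (interaction 1.24, limma adjusted p = 7.11e-06). *Cpt1a*, the outer membrane step of the carnitine shuttle, did not follow: it averaged 1332 ± 196 in null WY livers and 1348 ± 210 in null controls, against 1769 ± 112 in wild-type WY livers and 1561 ± 262 in wild-type controls, and neither strain's change passed the test. *Pdk4*, a kinase that shuts off pyruvate dehydrogenase when fat is burnt, read 38.0, 33.6 and 40.8 in null WY livers and 20.2, 28.0 and 43.1 in null controls, against 771, 239 and 612 in wild-type WY livers and 27.2, 15.7 and 17.1 in wild-type controls. The wild-type WY mice differed among themselves more for this gene than for *Acadm*, yet all lay above every other mouse (interaction 4.27, SE 0.66).

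**Figure D2:**
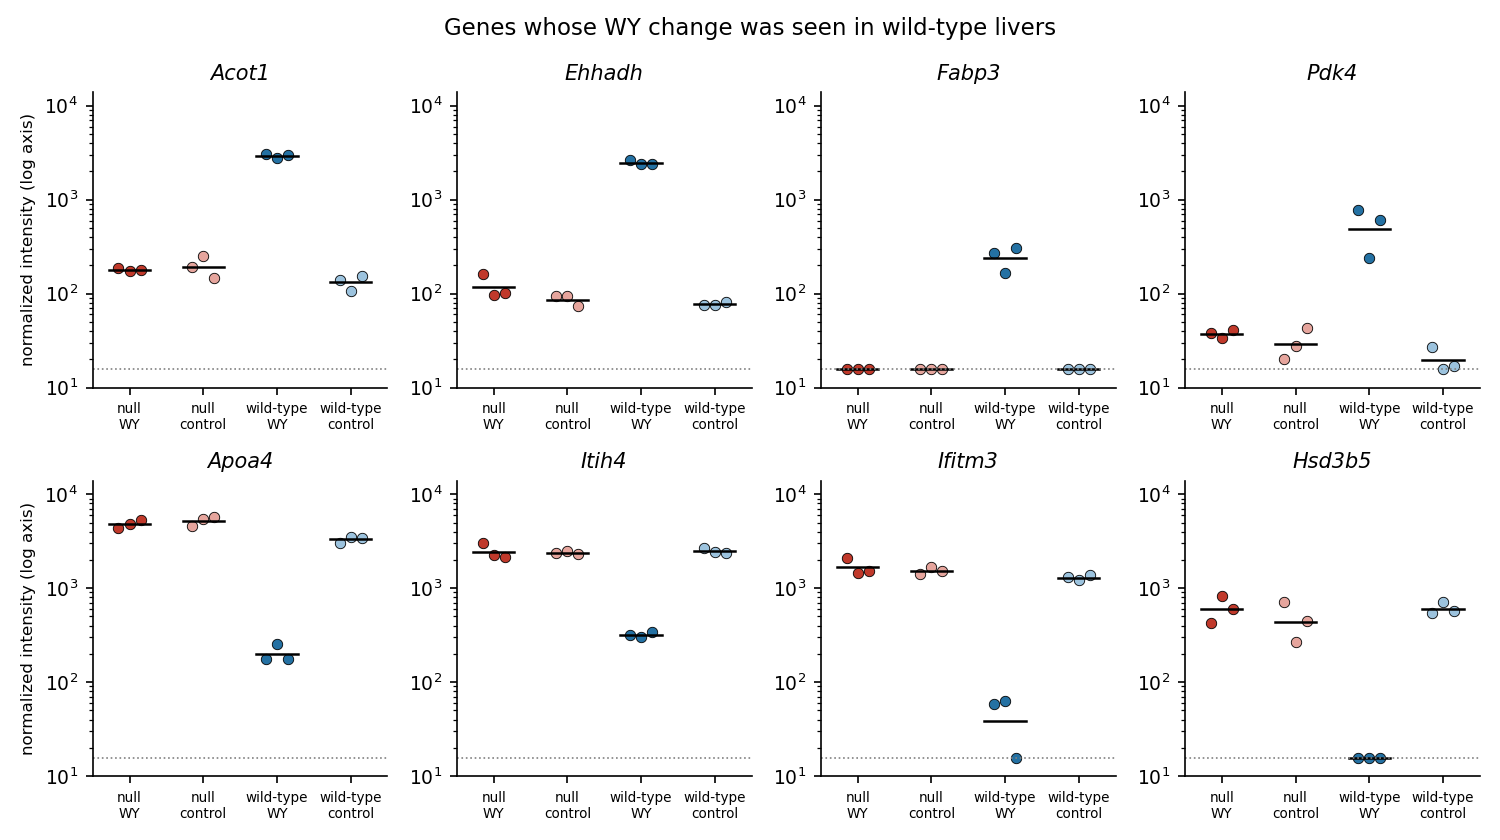
Normalized intensity (log axis) of 8 genes in each of the 12 mice, with 1 point per mouse, a bar at the mean of the log2 values of the 3 mice in a group, and a dotted line at the floor of 15.7. In the upper row the wild-type WY mice lie above all others, and in the lower row they lie below all others.

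Lipid synthesis was less uniform. *Me1*, malic enzyme, which supplies NADPH for fatty acid synthesis, averaged 98.1 ± 46.4 in null WY livers and 107 ± 12.8 in null controls, against 1675 ± 229 in wild-type WY livers and 157 ± 20.7 in wild-type controls (interaction 3.64, limma adjusted p = 6.55e-05). With *Elovl5*, a fatty acid elongase, and *Pgd*, of the pentose phosphate pathway, it made 3 positive calls of 15 in fatty acid synthesis. For 17 cholesterol synthesis genes the median interaction was high, 1.31, and 7 rose with WY in wild-type livers, but only *Hmgcs1*, which makes HMG-CoA, passed the test of the interaction (2.69, SE 0.48, limma adjusted p = 0.00228). The median change of that list was 0.10 in null livers and 1.41 in wild-type livers.

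Many genes of plasma proteins, which hepatocytes secrete, fell with WY in wild-type livers. Of 53 acute phase, complement and coagulation genes, 26 had a negative and 0 a positive interaction, the median over the 53 being -0.83. At a common median 20 were called negative and without scaling 3, with medians of -0.85 and -0.54. The 26 had interactions of -0.45 to -7.44 and null changes of -0.18 to 0.98. *Itih4*, an inter-alpha-trypsin inhibitor heavy chain, read 3057, 2237 and 2135 in null WY livers and 2369, 2470 and 2335 in null controls, against 314, 300 and 344 in wild-type WY livers and 2653, 2420 and 2369 in wild-type controls. The wild-type WY values did not overlap with the rest, while the null groups did (interaction -2.99, SE 0.18, limma adjusted p = 2.92e-08). *C9* and *Hc*, terminal components of complement, had interactions of -2.78 and -1.56, and *C2*, of the classical pathway, had -1.34. *Saa2*, an acute phase apolipoprotein, read 6678, 448 and 204 in null WY livers and 551, 260 and 557 in null controls, against 15.7 in every wild-type WY liver and 2258, 578 and 2021 in wild-type controls. It was at least 87.8-fold lower with WY in wild-type livers, its null WY mice spread over more than an order of magnitude, and its probe set can read related *Saa* genes.

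*Apoa4*, a lipoprotein component, read 4405, 4775 and 5318 in null WY livers and 4579, 5396 and 5709 in null controls, against 174, 252 and 177 in wild-type WY livers and 3021, 3521 and 3457 in wild-type controls. It fell 16.8-fold in wild-type livers, and the null groups overlapped (interaction -3.96, SE 0.33, limma adjusted p = 9.63e-07). Among 17 apolipoprotein and lipoprotein assembly genes 3 were called negative, *Apoa4*, *Apom* and the receptor gene *Lrp1*, and 2 positive, *Pltp*, the phospholipid transfer protein, at 3.36 and *Apoc1* at 0.32 (-0.28 and not called at a common median). At a common median 3 were called negative and 1 positive, and without scaling 1 of each.

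Male-biased and growth hormone dependent genes had 6 negative calls of 16 and 0 positive, with a median of -0.95 (2 calls and -0.70 without scaling). *Hsd3b5*, a steroid dehydrogenase of male mouse liver, read 429, 831 and 594 in null WY livers and 715, 268 and 443 in null controls, against 15.7 in every wild-type WY liver and 545, 709 and 568 in wild-type controls, at least 38.3-fold lower. *Egfr*, the epidermal growth factor receptor, averaged 624 ± 50.1 in null WY livers and 728 ± 222 in null controls, against 61.0 ± 33.9 in wild-type WY livers and 781 ± 38.6 in wild-type controls. *Igf1*, the growth hormone dependent growth factor, had an interaction of -1.07 (SE 0.19, limma adjusted p = 0.00209), and *Igfals*, which stabilises it in plasma, had -1.93. The wild-type WY livers had the lowest mean for each of these 4 genes.

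In amino acid degradation and the urea cycle 9 of 34 genes were called negative, at -0.32 to -1.45, and 1 positive. The median of the list was -0.24, and without scaling, with 2 negative calls, it was 0.04. *Otc*, ornithine transcarbamylase of the urea cycle, averaged 2108 ± 11.6 in null WY livers and 1990 ± 207 in null controls, against 782 ± 73.5 in wild-type WY livers and 1918 ± 36.9 in wild-type controls. *Gnmt* and *Sardh*, of glycine and sarcosine metabolism, had interactions of -1.05 and -1.45. The positive call was *Csad*, of taurine synthesis, at 2.51. Of these genes *Hal*, histidine ammonia-lyase, was the one with a null change past an unadjusted p of 0.05: it averaged 608 ± 56.5 in null WY livers and 829 ± 47.9 in null controls, against 248 ± 11.0 in wild-type WY livers and 562 ± 79.5 in wild-type controls. The null groups did not overlap (null log2 -0.45, unadjusted p = 0.00428), and the fall in wild-type livers was larger (interaction -0.72, limma adjusted p = 0.0352).

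Among enzymes of foreign compounds 6 of 40 genes were called negative and 4 positive, which became 4 and 2 at a common median and 1 and 2 without scaling, so the balance of signs depends on the scaling. *Cyp1a2*, which oxidises aromatic amines and caffeine, averaged 3511 ± 469 in null WY livers and 3305 ± 366 in null controls, against 922 ± 102 in wild-type WY livers and 3438 ± 395 in wild-type controls. Large single falls outside the lists were *Ifitm3*, an interferon-induced membrane protein, with an interaction of -5.18 (SE 0.66, limma adjusted p = 0.000111), and *Hsd11b1*, which regenerates active glucocorticoid, with -3.07. *Hsd11b1* averaged 1877 ± 96.6 in null WY livers and 1865 ± 519 in null controls, against 232 ± 51.1 in wild-type WY livers and 1854 ± 19.7 in wild-type controls. *Lamb3*, a laminin chain, and *Prss8*, a serine protease, were at least 19.7-fold and 13.0-fold higher with WY in wild-type livers, where their controls lay at the floor. The 12 largest interactions of each sign with no overlap in wild-type livers also held *Gm34703*, a predicted gene, at 3.82, and *Tspan4*, a tetraspanin, *Pklr*, the pyruvate kinase of liver, and *Wdr45b* at -4.01, -3.59 and -3.10.

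Of 39 proteasome subunit genes 17 had a positive interaction, of 0.43 to 1.85, 1 a negative one and 21 no call, with a median of 0.60 over the 39 and null changes of -0.45 to 0.16 in the 17. At a common median 14 were called positive and 1 negative, and without scaling 2 and 0, with medians of 0.59 and 0.90. *Psma7*, of the catalytic core, averaged 282 ± 20.2 in null WY livers and 286 ± 16.6 in null controls, against 526 ± 60.2 in wild-type WY livers and 259 ± 17.4 in wild-type controls (interaction 1.04, SE 0.11, limma adjusted p = 1.61e-05). *Psmd4*, the ubiquitin receptor of the regulatory particle, had 1.62. The negative call was *Psmb8*, the interferon-inducible subunit that replaces a core subunit, at -1.49: it averaged 143 ± 15.3 in null WY livers and 139 ± 10.7 in null controls, against 41.3 ± 6.70 in wild-type WY livers and 111 ± 1.94 in wild-type controls.

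For oxidative phosphorylation 9 of 44 genes were called positive and 0 negative (median 0.33), which became 3 at a common median and 1 without scaling. In all 9 the null change was below 0, at -0.90 to -0.01. A null change enters the interaction, and a positive call favours one below 0, so this is not independent of the call. Over the 44 genes 5 were lower in null livers at an unadjusted p under 0.05 and 0 higher, beside 171 lower and 130 higher of all 8251 genes. *Cox5b*, a subunit of cytochrome c oxidase, read 1391, 1407 and 1483 in null WY livers and 1642, 1457 and 1512 in null controls, against 2128, 2179 and 2103 in wild-type WY livers and 1460, 1407 and 1347 in wild-type controls. The wild-type WY values lay above those of all other mice (log2 0.61), and the null difference of -0.11 (unadjusted p = 0.0388, limma adjusted p = 1) did not pass the adjustment. Mitochondrial chaperones had 3 positive calls of 9, *Hspd1*, *Hspe1* and the protease gene *Clpp*, antioxidant genes had 5 positive and 1 negative of 22, and cytosolic chaperones had 1 positive of 37. The first of these lists had 0 calls at a common median, and the antioxidant list 1. Cell cycle and DNA replication genes had 1 of each sign in 38, *Ccnb2* at 1.06 and *Mcm7* at -1.35, a share near the background.

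**Figure D3:**
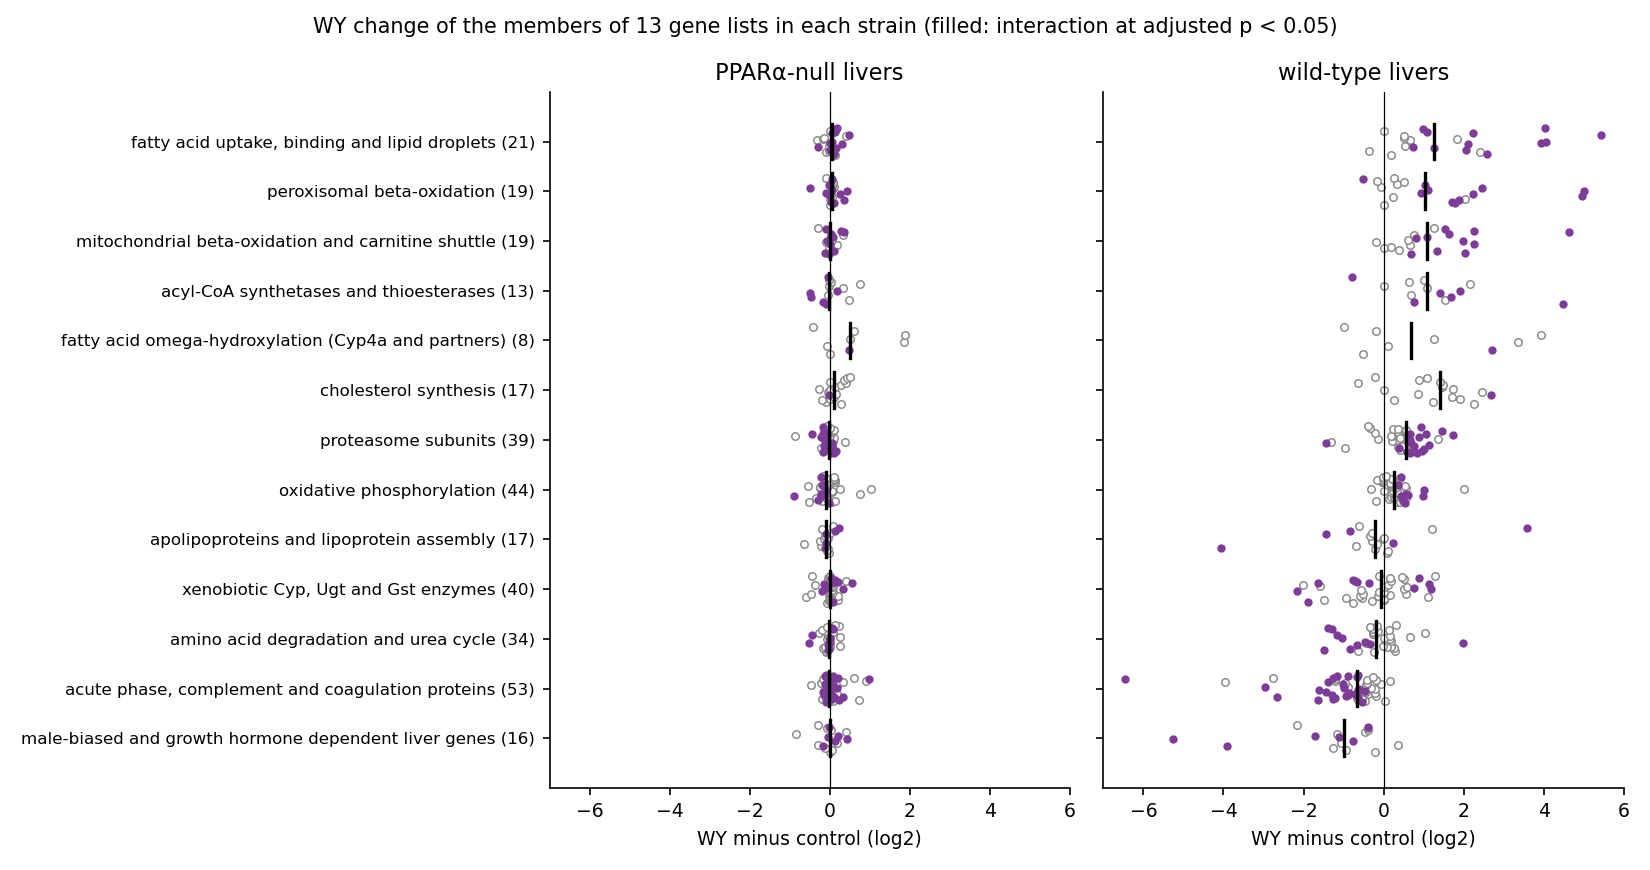
WY change (log2, WY minus control) of each member of 13 gene lists, in PPARα-null livers on the left and wild-type livers on the right, with 1 point per gene, a bar at the median of the list, the number of genes in brackets and filled points for called interactions. In wild-type livers the medians run from -0.99 for male-biased genes to 1.41 for cholesterol synthesis, and in null livers from -0.09 for apolipoproteins to 0.50 for the *Cyp4a* list.

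The *Cyp4a* genes, cytochromes P450 that hydroxylate fatty acids at their far end, had the largest wild-type rises whose interaction did not pass the test. *Cyp4a14* read 329, 241 and 45.8 in null WY livers and 52.1, 33.1 and 41.4 in null controls, against 5239, 5396 and 5099 in wild-type WY livers and 239, 386 and 443 in wild-type controls. Of the null WY mice 2 lay above all null controls and the third fell within their range. The null change was 1.89 (SE 0.70, 95% interval 0.40 to 3.38, unadjusted p = 0.0158, limma adjusted p = 1) and the wild-type change 3.93, so the interaction was 2.04 (SE 0.99, limma adjusted p = 0.367). On the linear scale the WY mean was 205 in null and 5245 in wild-type livers. *Cyp4a10* read 205, 105 and 15.7 in null WY livers and 28.9, 15.7 and 15.7 in null controls, against 4366, 3428 and 4306 in wild-type WY livers and 348, 364 and 474 in wild-type controls. The same 2 null WY mice were high and the same 1 at the level of the controls, and the null change was 1.85 (unadjusted p = 0.0119), with an interaction whose 95% interval was -0.46 to 3.46 (limma adjusted p = 0.572). Its controls differed by genotype (log2 -4.34, limma adjusted p = 0.00301), the null controls lie near the floor, and its probe set can read other *Cyp4a* genes, so the pair may not be independent.

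In the heat-shocked mice, which share none of these animals, the 3 null mice fed WY read 68.3, 41.8 and 29.98 for *Cyp4a14* and the 3 null mice without WY 68.0, 83.2 and 41.6, so the groups overlapped and the WY group was not the higher one. The interaction there was called for *Cyp4a14* (3.74, limma adjusted p = 0.0209) and for *Cyp4a10* (3.00, limma adjusted p = 0.0486). *Aldh3a2*, a fatty aldehyde dehydrogenase and the member of the omega-hydroxylation list with a called interaction (2.21, limma adjusted p = 0.00749), had a null change of 0.49 (95% interval -0.20 to 1.18). The other null change of that list past an unadjusted p of 0.05 was *Cyp4b1*, at 0.62.

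Other WY effects in unheated null livers were small or rested on dim probe sets. The single called one was *Reck*, a membrane inhibitor of matrix metalloproteinases, which read 22.6, 29.8 and 25.9 in null WY livers and 17.0, 15.7 and 15.7 in null controls, against 15.7 in all wild-type mice (null log2 0.68, limma adjusted p = 3.71e-05, interaction -0.68). All values lie close to the floor, *Reck* was at the floor in all 12 heat-shocked mice, and with the floor set lower or higher, or on a scale without a floor, the call was lost. *Acaa1b*, peroxisomal 3-ketoacyl-CoA thiolase B, read 1793, 1614 and 2103 in null WY livers and 1377, 1407 and 1457 in null controls, against 8767 in every wild-type WY liver and 2190, 2281 and 2653 in wild-type controls. The null groups did not overlap (log2 0.37, SE 0.09, unadjusted p = 0.00095, limma adjusted p = 0.481). The 3 wild-type WY arrays share a value because it held the same high rank on each, so the interaction of 1.52 is limited at the top of the scale, and a second probe set of the gene gave 3.32. *Acaa1b* is 1 of 6 measured genes that the study names for WY in null mice on another array, and 5 of the 6 had a positive interaction here. Their median null change was 0.14, beside 1.80 in wild-type livers, and apart from *Acaa1b* none passed an unadjusted p of 0.05 in null livers. The study chose these genes on other samples, from mice given WY as a daily dose of solution and for fewer days than the diet here. Some brighter genes changed alike in heat-shocked null livers, where 11.2% of all probe sets were called for WY. There *Hal* changed by -0.66 and *Elovl5* by 1.02 (limma adjusted p = 0.00477 and 0.00152), beside -0.45 and 0.44 in unheated null livers. *Ehhadh* changed by 0.50 and *Acaa1b* by 0.13 there, and neither was called.

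Of the 637 probe sets with a called interaction 79 (12.4%) had a null change past an unadjusted p of 0.05, where 3.45% of all probe sets did. A null change enters the interaction, so this share is not independent of it. In 66 of the 79 the null change ran against the interaction's sign, and so added to it, and in 13 it ran the same way. The genes named next were chosen for a wild-type change of the opposite sign, by the size of the null change, and all were dim. Their wild-type change was not called for *Cyp7a1*, *Fcna* (log2 -0.15) or *Wnk2* (log2 0.76). *Folr1*, a folate receptor, read 209, 116 and 128 in null WY livers and 107, 35.1 and 17.9 in null controls, against 25.0, 15.7 and 19.0 in wild-type WY livers and 148, 47.7 and 134 in wild-type controls (null log2 1.84, unadjusted p = 0.00502, interaction -4.17, limma adjusted p = 0.00415). *Cyp7a1*, the rate-limiting enzyme of bile acid synthesis, read 141, 62.9 and 56.9 in null WY livers and 42.6, 21.1 and 15.7 in null controls, against 36.4, 38.9 and 15.7 in wild-type WY livers and 94.7, 42.6 and 120 in wild-type controls. Neither side was called (null log2 1.72, unadjusted p = 0.00477, wild-type log2 -1.48, limma adjusted p = 0.0935), while the interaction was (-3.20, SE 0.74, limma adjusted p = 0.0156). For both genes the null groups did not overlap. In heat-shocked mice the interactions were -2.37 for *Folr1* and -0.78 for *Cyp7a1*, neither called. *Col9a1*, a chain of collagen IX, rose by log2 1.23 in null livers (unadjusted p = 0.00997) and lay at the floor in every wild-type WY liver (interaction -3.02, limma adjusted p = 0.00486), but in heat-shocked null livers its WY change was -1.93 (limma adjusted p = 0.00671). *Fcna*, a ficolin of liver macrophages, averaged 84.3 ± 9.85 in null WY livers and 34.8 ± 15.3 in null controls, against 41.6 ± 7.70 in wild-type WY livers and 45.6 ± 3.25 in wild-type controls. The macrophage marker sums given above reached their highest value in null WY livers but overlapped there with those of null and wild-type controls. The part of macrophage content in the *Fcna* values was not tested. Its null change was 1.38 (unadjusted p = 0.00024), and in heat-shocked null livers WY raised it by 1.53 (limma adjusted p = 0.00305). *Wnk2*, a kinase, was at the floor in every null WY liver and averaged 50.5 ± 6.10 in null controls, against 98.3 ± 8.41 in wild-type WY livers and 65.6 ± 38.3 in wild-type controls, and its other probe set was not called. Its null change was -1.67 in unheated and -0.10 in heat-shocked mice.

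**Figure D4:**
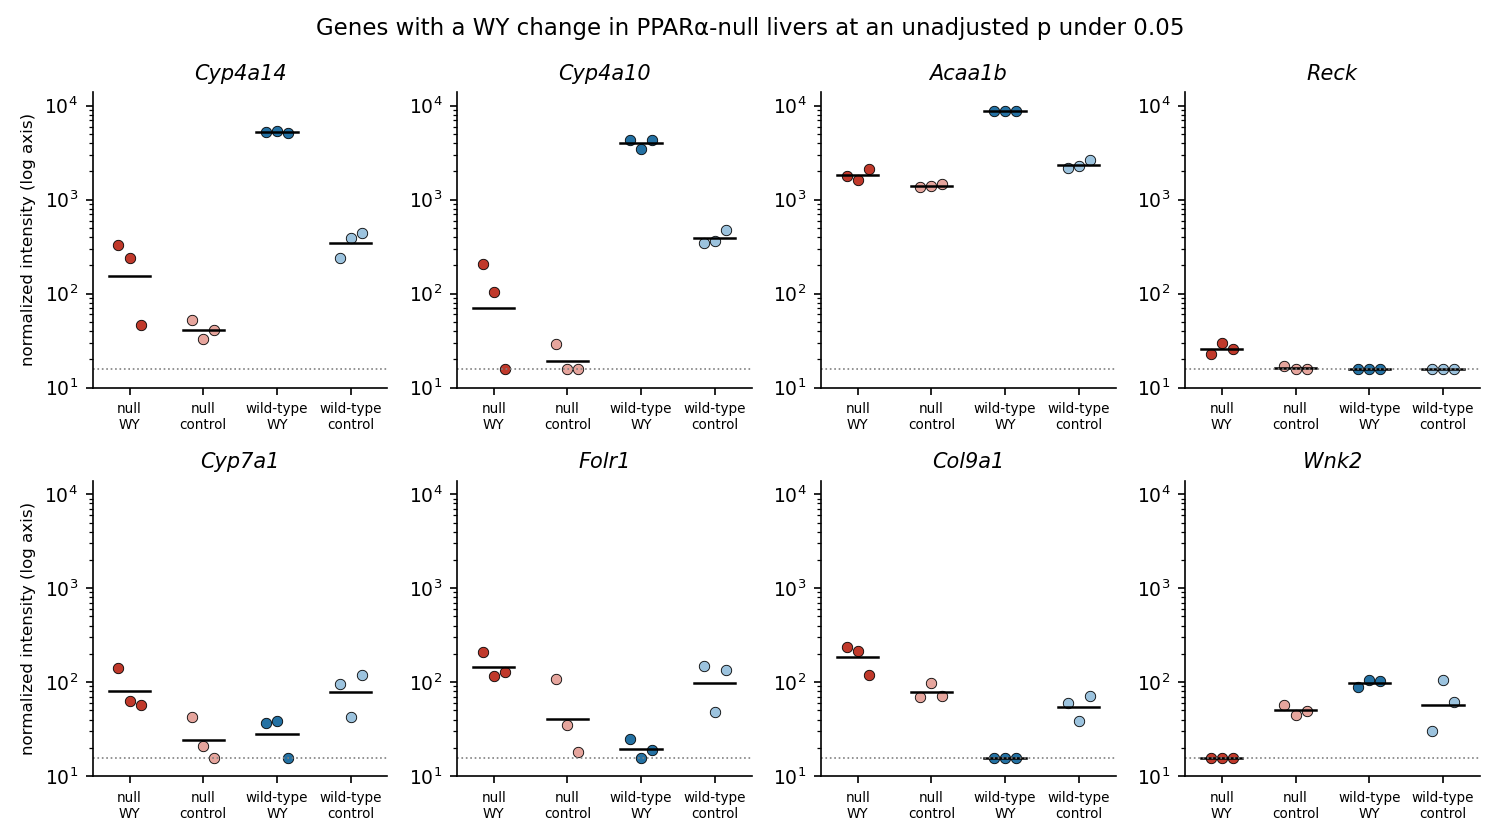
Normalized intensity (log axis) of genes with a WY change in PPARα-null livers that passed the adjustment or an unadjusted p under 0.05, in each of the 12 mice, with 1 point per mouse, a bar at the mean of the log2 values and a dotted line at the floor of 15.7. For *Cyp4a14* and *Cyp4a10* 2 of the 3 null WY mice lie above the null controls, and the *Reck* values lie just above the floor.

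Of the 1339 probe sets called in wild-type livers, 39 had a null change with the same sign past an unadjusted p of 0.05, 20 upward and 19 downward, and 37 had one with the opposite sign. Of all 12422 probe sets 429 (3.45%) had a null change past that p in either direction. Those 12422 include the 3497 that lay at the floor and could not change. Rises and falls shared between the strains were about as frequent as opposed ones. Of those with a wild-type change of 2-fold or more, 5 had a null change of at least 0.5 of it. *Atf6*, a sensor of endoplasmic reticulum stress chosen here after its values were seen, read 19.6, 23.8 and 18.7 in null WY livers and 43.9, 36.7 and 36.5 in null controls, against 22.9, 24.9 and 20.7 in wild-type WY livers and 42.1, 41.7 and 40.0 in wild-type controls. Both WY groups lay below both control groups without overlap, with changes of -0.92 in null livers (unadjusted p = 6.33e-05, limma adjusted p = 0.132) and -0.86 in wild-type livers (limma adjusted p = 0.00288), and the interaction was 0.06 (95% interval -0.46 to 0.58). The heat-shocked mice did not repeat it, with WY changes of 0.00 in null livers (unadjusted p = 0.979) and -0.21 in wild-type livers. *Hmces*, a DNA repair protein that was also chosen after its values were seen, read 56.9, 85.1 and 73.3 in null WY livers and 24.7, 16.6 and 30.7 in null controls, against 55.1, 59.1 and 55.9 in wild-type WY livers and 68.8, 34.3 and 43.2 in wild-type controls. Its null groups did not overlap, but the null change missed the adjusted threshold (log2 1.61, limma adjusted p = 0.132), and so did the interaction (-1.33, adjusted p = 0.0934). In heat-shocked null livers its WY change was -0.39.

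The 12 heat-shocked mice hold the same contrast in other animals. There the interaction was called for 1301 probe sets (10.5%), 585 positive (4.71%) and 716 negative (5.76%). Without scaling it was 137 and 741. Among the heat-shocked mice wild-type HS mouse 5 stood apart, with *Cyp4a14* at 1837 against 229 and 273 in the other 2 of its group, and without it 1336 were called. Leaving out each heat-shocked mouse gave 1040 to 1560 calls, the most without null HS mouse 18. Of the 637 called in unheated mice 609 (95.6%) had the same sign in the heat-shocked mice. The call was repeated for 402 (63.1%), 203 of the 365 positive (55.6%) and 199 of the 272 negative (73.2%), and 0 were called with the opposite sign. The 402 are 30.9% of the heated calls. For each probe set the tests in both sets of mice used a common spread, pooled over all groups. A repeated call, here or by list below, is therefore not independent of the unheated call. No share of equal signs over all probe sets is given beside the 95.6%. Among the 637 the interactions of the 2 sets of mice correlated across probe sets at 0.904 (Pearson, a description). The median of the positive ones was 0.79 in heat-shocked and 1.09 in unheated mice, and that of the negative ones -1.12 and -1.09.

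**Figure D5:**
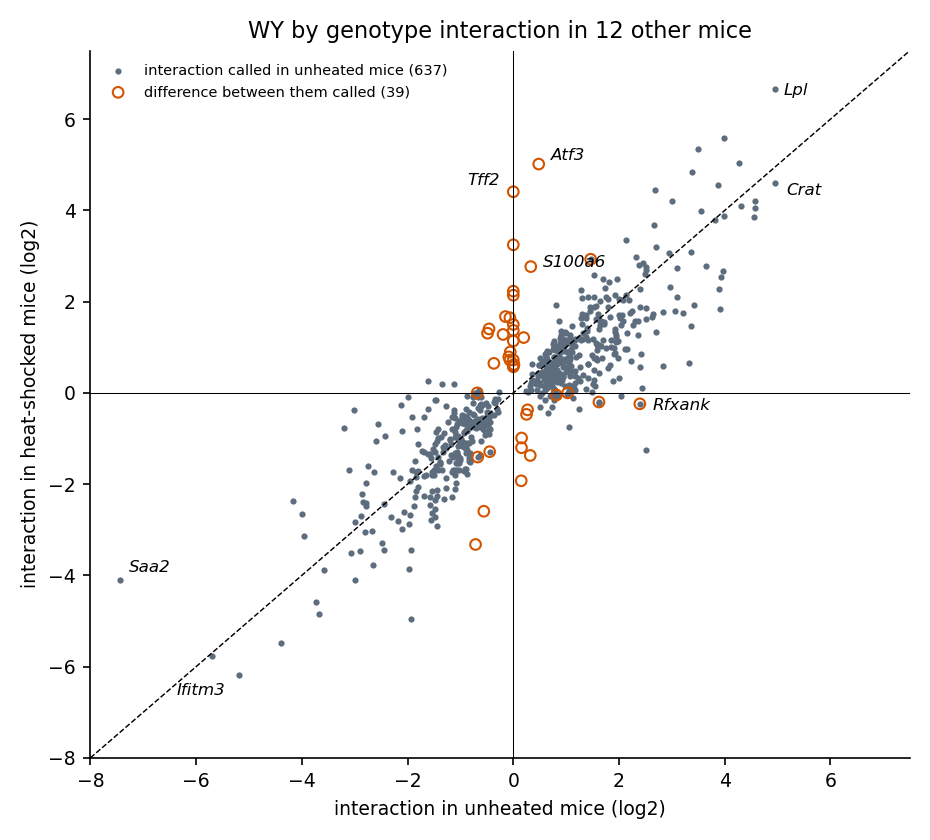
WY by genotype interaction (log2) in the 12 heat-shocked mice (vertical axis) against that in the 12 unheated mice (horizontal axis), with 1 point for each of the 637 probe sets called in unheated mice and a ring at each of the 39 probe sets, 8 of them among the 637, whose difference between the sets of mice was called. Of the 637 points 609 lie in the quadrants of equal sign, and the dashed line marks equal values.

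The heated interaction is not made in the same way as the unheated one, because WY also changed null livers after HS. WY+HS against HS was called for 1391 probe sets (11.2%) in null livers and for 1203 (9.68%) in wild-type livers. Of the 1301 heated interactions 491 were called on the null side only, 506 on the wild-type side only, 169 on both and 135 on neither. For the 637 the null side was called in heat-shocked mice in 182, in 120 of them against the interaction's sign and in 62 with it. The wild-type side was called with the same sign in 480 and with the opposite sign in 0.

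By list, 30 of the 38 positive fatty acid genes were again called positive in heat-shocked mice, *Acot1* at 4.04 and *Ehhadh* at 4.20, and 21 of the 26 acute phase, complement and coagulation genes were again called negative, *Itih4* at -2.82. For proteasome subunits it was 9 of 17 and for oxidative phosphorylation 5 of 9. *Cycs*, cytochrome c, had 0.14 in heat-shocked and 1.11 in unheated mice, and *Hmgcs1* had 1.33 in heat-shocked and 2.69 in unheated mice, without a heated call for either gene, and the difference between the 2 sets of mice was called for neither.

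The difference of the interaction between heat-shocked and unheated mice was called for 39 probe sets (0.314%), 25 higher and 14 lower with heat. The count rests on single mice: it was 225 without null HS mouse 18, 95 higher and 130 lower, and 34 to 67 on leaving out any other. In 10 of the 39 all unheated groups lay at the floor. *Atf3*, a stress-induced transcription factor, read 36.9, 99.8 and 32.7 in null WY+HS livers and 80.9, 93.0 and 58.7 in null HS livers, against 650, 926 and 483 in wild-type WY+HS livers and 23.6, 43.1 and 30.9 in wild-type HS livers. Only the wild-type mice with both treatments were high (heated interaction 5.02, unheated 0.48, difference 4.53). Its probe set can read related sequences. *Tff2*, *S100a6*, *Sh3bp1* and *Akr1b8* had differences of 2.14 to 4.41 and were raised in null HS livers, where *Tff2*, a trefoil peptide, read 232, 186 and 870, against 15.7 in every null WY+HS, wild-type WY+HS and wild-type HS liver. *Rfxank*, a factor of MHC class II expression, was the other way round: WY raised it to 81.7, 99.5 and 83.8 in unheated wild-type livers, against 15.7, 19.0 and 15.7 in their controls, and in heat-shocked wild-type livers it lay at the floor in all mice (difference -2.63).

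The genes with called interactions were set beside their promoters, 250 bases before to 50 after the annotated start (RefSeq, GRCm38.p6), which were found for 238 of the 295 positive genes, 173 of the 222 negative genes and 6572 of all 8251 genes on the array. The motif searched was the hexamer AGGTCA in direct repeat with 1 base between the copies, on both strands, with up to 2 mismatches over its 12 fixed letters. It occurred in 11 positive promoters (4.62%), 13 negative ones (7.51%) and 257 of all (3.91%). With up to 3 mismatches the shares were 26.9%, 30.6% and 25.1%, and the hexamer alone, which lies within the repeat, occurred in 16.8%, 24.3% and 16.1%. The shares of positive genes lie near those of all genes, and the shares of negative genes lie above them. These differences were not tested. A match is a run of letters and no evidence of binding, and elements outside this window were not searched.

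Below are the 250 bases before the start, 5′ to 3′ on the gene's strand, of a pair of positive and a pair of negative genes with such a match, whose 13 letters are in capitals. *Cd36* and *Plin2*, which codes for a lipid droplet coat protein, rose with WY in wild-type livers, and *Itih4* and *F7*, a coagulation factor, fell.
Cd36 (chr5:17835897-17836146, minus strand, match 63 to 51 bases before the start): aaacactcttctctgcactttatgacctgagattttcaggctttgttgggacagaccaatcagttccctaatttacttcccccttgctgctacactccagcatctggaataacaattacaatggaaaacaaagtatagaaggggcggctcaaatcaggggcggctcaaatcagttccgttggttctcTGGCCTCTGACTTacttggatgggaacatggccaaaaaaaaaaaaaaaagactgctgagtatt
Plin2 (chr4:86670060-86670309, minus strand, match 225 to 213 bases before the start): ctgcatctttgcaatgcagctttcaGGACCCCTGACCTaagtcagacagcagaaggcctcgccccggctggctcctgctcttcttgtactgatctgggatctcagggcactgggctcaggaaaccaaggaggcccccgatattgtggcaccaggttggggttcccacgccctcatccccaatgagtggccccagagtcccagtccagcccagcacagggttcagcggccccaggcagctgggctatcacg
Itih4 (chr14:30886226-30886475, plus strand, match 115 to 103 bases before the start): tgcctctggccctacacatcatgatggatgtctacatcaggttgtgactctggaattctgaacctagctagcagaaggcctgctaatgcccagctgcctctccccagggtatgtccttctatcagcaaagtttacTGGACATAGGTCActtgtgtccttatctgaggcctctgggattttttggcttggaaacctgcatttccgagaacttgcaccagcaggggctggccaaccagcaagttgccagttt
F7 (chr8:13025784-13026033, plus strand, match 34 to 22 bases before the start): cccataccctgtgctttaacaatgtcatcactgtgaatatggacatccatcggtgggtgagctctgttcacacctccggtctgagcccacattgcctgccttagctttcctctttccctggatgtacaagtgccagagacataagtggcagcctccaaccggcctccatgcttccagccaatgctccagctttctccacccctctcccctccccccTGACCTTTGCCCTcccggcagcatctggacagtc
The *Cd36* and *Plin2* matches read on the opposite strand to the gene and hold 2 mismatches each, that of *Itih4* reads on the gene's strand with 2, and that of *F7*, with 1, is the closest of the 4. *Plin2* averaged 1106 ± 137 in null WY livers and 1027 ± 233 in null controls, against 4391 ± 42.2 in wild-type WY livers and 2084 ± 166 in wild-type controls (interaction 0.95, limma adjusted p = 0.0182). *F7* had an interaction of -1.27. *Hspd1* and *Hspe1*, the mitochondrial chaperonin genes that lie head to head, share 1 match between them, and both rose with WY in wild-type livers (interactions 0.64 and 1.07).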

How the data were processed

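Liver RNA of 24 mice was hybridised to Affymetrix Murine Genome U74Av2 arrays, and per the labels and methods the authors scanned them under GeneChip Operating Software and processed the data with Rosetta Resolver. The deposited values are linear intensities per probe set, of which 71989 (24.1%) lie at or below 0. Neither the summary method nor any scaling by the authors is given in the sources used. Nothing says whether the mice of a group were housed or processed apart, so p-values measure the spread between these mice.

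After quantile normalization across the 24 arrays, values were floored at 15.7 (the size of the 10th percentile, which is negative) and taken to log2. At the floor lay 42.9% of the values. The number of arrays limits the precision. Group means of all 8 groups were then fitted by limma (version 3.58.1, R version 4.3.3, 16 residual and 0.39 prior degrees of freedom), with Benjamini-Hochberg adjustment over 12422 probe sets at 0.05. Gene symbols came from the platform annotation, 10833 probe sets having 1 symbol, 396 several and 1193 none. Names were taken only from probe sets with 1 symbol, the brightest per gene.

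The members and the 36 gene lists were chosen with earlier results of these data known. Genes named in the text follow a rule: the 12 largest positive and negative interactions with no overlap between WY and control mice in wild-type livers, every call in null livers, up to 4 members per list, and short sets for changes shared with null livers, opposed to them or differing with heat. Others are members of the lists or are said to be chosen after their values were seen. The pipeline was tested on simulated data with known rises, placed only in wild-type WY arrays and only in bright probe sets. That simulation does not cover changes in null livers or near the floor. Alternatives were a common median, no scaling, other floors, an asinh scale, limma's arrayWeights, trend and robust moderation, filters, stricter thresholds, the methods' test, a fit of the 12 arrays alone and leaving out each array. The study's other tables, blood and protein measurements were not analysed here.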

Additional observations from a re-analysis of the deposited data

Results flagged for a closer look

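The WY effect differed between PPARα-null and wild-type livers for 637 probe sets by the test of the difference itself, and these are the subject of the report. The interaction differed in turn between heat-shocked and unheated mice for 39 probe sets. The largest such differences among named genes were those of *Atf3* (4.53 on the log2 scale, heat-shocked minus unheated), *Tff2* (4.41), *Rfxank* (-2.63), *S100a6* (2.44), *Sh3bp1* (2.23) and *Akr1b8* (2.14). *Reck*, the 1 gene called for WY in null livers, was also among them, with 0.68, since it lay at the floor in all heat-shocked mice. For *Tff2*, *S100a6*, *Sh3bp1* and *Akr1b8* the high group was the null HS mice, in which *S100a6* read 105, 112 and 112, against 16.9, 15.7 and 15.7 in null WY+HS mice. No explanation of these differences was tested.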

How the results depend on the processing

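Against 637 main calls, the interaction had 265 without scaling, of which 215 are shared, 1056 with limma's arrayWeights, 356 at an adjusted p under 0.01 and 398 by the methods' test, and other processing alternatives kept it within 1.5 times. Leaving out each mouse gave 499 to 645. WY in null livers, with 1 call, had 0 with the floor at the size of the 5th percentile or with dim probe sets removed, 14 by the methods' test and 2 with only the 12 unheated arrays, and 1 to 10 on leaving out each mouse, 10 without null control mouse 15. *Reck* was not among the calls with only the 12 unheated arrays (*Shkbp1* and *Pqbp1*), with the floor at the size of the 20th percentile (*Atp1b1*) or on the asinh scale (*Igbp1b*). WY in wild-type livers, with 1339, had 775 at an adjusted p under 0.01, 715 by the methods' test and 993 to 1354 on leaving out each mouse. The heated interaction, with 1301, had 741, 697 and 1040 to 1560. The difference with heat, with 39, had 21 with the floor at the 20th percentile, 5 on the asinh scale, 135 with arrayWeights, 18 at an adjusted p under 0.01, 71 by the methods' test, and 34 to 225 on leaving out each mouse. It was 225 without null HS mouse 18, 67 without wild-type WY mouse 8, 65 without null control mouse 15 and 61 without null WY mouse 19. Leaving out heat-shocked mice for this difference was chosen after seeing the data. The cause of these shifts was not tested.

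Of the 86 genes named in the report 69 had a called interaction. Of these 35 kept their call and sign under every processing alternative that refitted all probe sets, 34 did not under at least 1, 28 of them without scaling, and 12 lost the call on leaving out an unheated mouse. *Apoc1* changed sign, to -0.28 at a common median. Probe sets near the floor limit what can be seen, and a group of 3 mice limits every null estimate. No paired analysis was possible because the titles number the mice 1 to 24, with 1 array each and no number shared between groups.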
